A study of Arabidopsis thaliana with 18 samples.

Results

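The probe sets described here read transcripts of genes carried by the mitochondrial genome of Arabidopsis thaliana. They were chosen from the array's annotation alone, as the non-control probe sets whose gene symbol begins with nad, cox, cob, ccb or orf, or with atp and a digit. The rule found 25 of 22746 non-control probe sets. Of these, 22 are paired with 1 gene and cover 15 gene names, and the other 3 also list a nuclear gene, AT2G07698, AT2G07701 or AT2G07702. No field began with cob, and the 1 probe set for cob lists the nuclear AT2G07727 first and so lies outside the rule.

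Expression was measured on 18 Affymetrix arrays of whole seedlings, at an age of 8 days in the labels. After 48 h at 4 °C in the dark, seeds germinated in light at 20 °C, and at day 5 all seedlings went to 12 °C in continuous light for 3 days, so every group had this cool period. The 6 groups were arp6-10 at 12 °C, after 2 h at 27 °C and after 24 h at 27 °C (4 arrays each), and Col-0, the wild type, at the same points (2 arrays each). The mutant carries an allele of ARP6, an actin-related protein that works in the SWR1 remodelling complex, the machinery that loads H2A.Z into nucleosomes. The labels give a single mutant allele, and ARP6 has no named probe set, so its own transcript was not checked. Nothing in the labels tells whether replicate arrays stand for separate cultures, and the p-values below therefore reflect the array-to-array spread, possibly technical, and no more.

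Plant mitochondria transcribe a small genome of their own whose products are mostly subunits of the respiratory chain, which work together with many nuclear-encoded subunits. Their transcripts are extensively spliced and edited, and several, nad1 among them, are joined from separately transcribed pieces. Poly(A) tails mark plant mitochondrial RNA for decay, unlike those of nuclear messengers.

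By role, 17 of the 25 probe sets read nad genes, which encode subunits of complex I, the NADH dehydrogenase. These cover nad1, nad2, nad4, nad4L, nad5 and nad6 of the membrane arm and nad7 and nad9 of the arm in the matrix. Another 2 probe sets read cox1 and cox2, core subunits of cytochrome c oxidase. The ccb genes, with 4 probe sets, serve the attachment of haem to c-type cytochromes. RefSeq's TAIR10.1 gene table lists ccb206 as ccmB, ccb452 as ccmFC, ccb382 as ccmFN1 and ccb203 as ccmFN2. The single orf member, orfX, is mttB there, a TatC-type membrane protein, and the single atp member reads atp1, the alpha subunit of ATP synthase. All 15 names of the 1-gene members match mitochondrial genes in that table. Arabidopsis chromosome 2 also carries a large nuclear copy of mitochondrial DNA, and 7 members have the suffix that Affymetrix gives to probes shared by several transcripts, so nuclear and mitochondrial copies cannot be told apart for them. These are orfX, ccb452, nad6, nad5 257338_s_at and the members that also list a nuclear gene.

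Many of these probe sets were dim. A probe set was counted as near background when its mean log2 level over all arrays lay under the 30th percentile of all non-control probe sets, which is 5.31, or an intensity of about 23.6. This held for 12 of the 25 members. Of the nad probe sets 11 were near background and 6 above. The ccb genes had 1 near background and 3 above, and the cox, orf and atp members were all above. Intensity passed 100 on at least 1 array for 8 members and on no array for 17. The 9 nad1 probe sets included 3 above the cutoff, and the files do not say which part of the gene each one reads.

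Across arrays, 2 arp6-10 arrays stood apart. On a line from 0, the mean of the other 3 arp6-10 arrays at 12 °C, to 1, the mean of the other 3 at 24 h, replicate 3 labelled 12 °C lay at 0.93 and replicate 2 labelled 24 h lay at 0.007. Their labels may have been exchanged, which the sources used here do not settle, and every arp6-10 value at 12 °C and 24 h depends on it. Values without both arrays stand beside the calls at 12 °C, the genotype comparison at 24 h, the responses of arp6-10 and the differences of responses. For the tissue markers and the lists of other genes they are given for some comparisons only. The GAPDH 3' to 5' signal ratio, a control for transcript integrity and labelling, ran from 1.47 to 6.78. By group it spanned 1.47 to 5.51, 1.47 to 3.09 and 1.51 to 6.48 in arp6-10 at 12 °C, 2 h and 24 h, and 1.99 to 3.06, 2.58 to 6.78 and 3.67 to 3.75 in Col-0. The actin 3' to 5' ratio, a control of the same kind, ran from 22.5 to 69.7 over all arrays. In Col-0 at 24 h it was 69.7 and 26.5, though the GAPDH ratios there were close. Its part in the members' levels was not tested. Root and green tissue markers, 3 measured of each, were above 0 on every array, and whole seedlings hold both tissues.

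The plot of intensities by array shows the 13 members above background. Levels differed among arrays of 1 group by a wide margin for the brightest members. In arp6-10 at 12 °C, for example, nad4 had intensities of 269.1, 902.1, 2123.3 and 892.5, and ccb382 had 317.0, 577.9, 2111.5 and 792.8. The highest array for both is the one labelled 12 °C that stood apart.

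**Figure D1:**
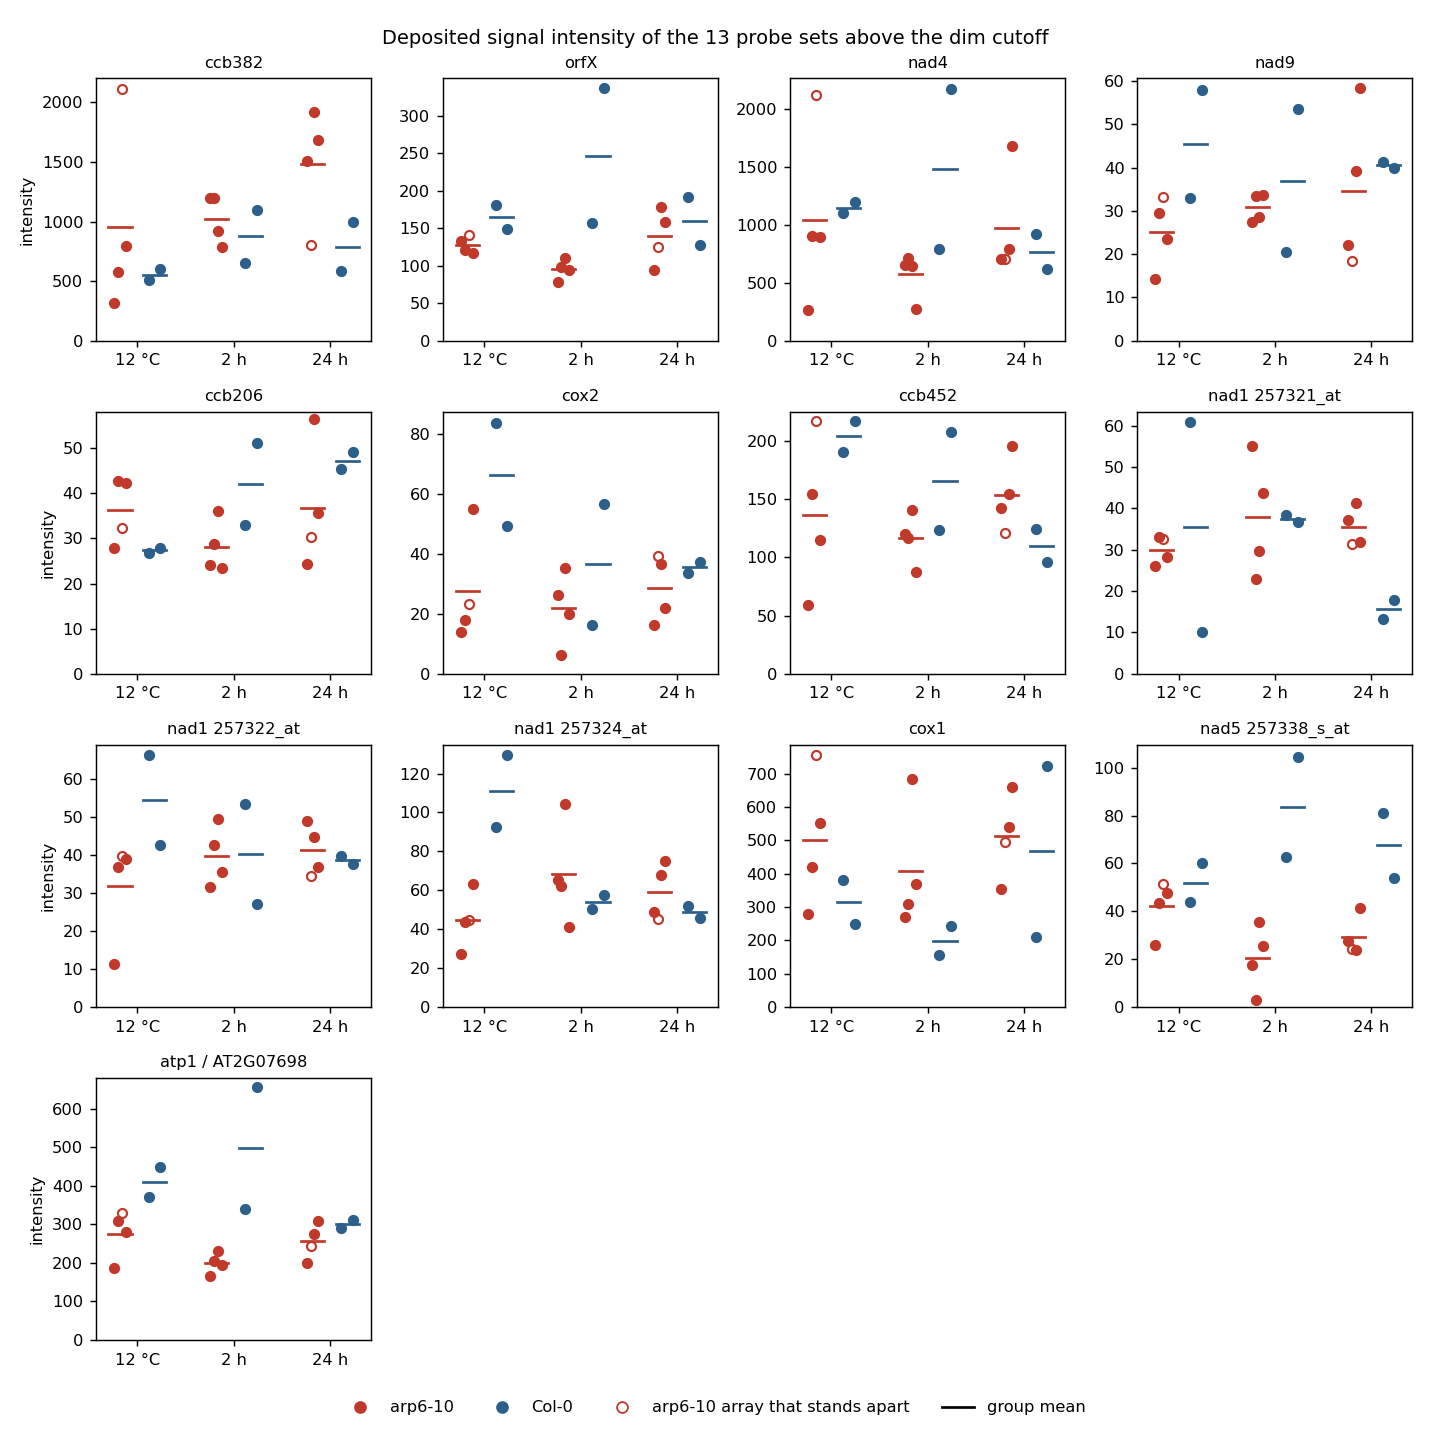
Deposited signal intensity (vertical axis, linear, its own scale in each panel) of the 13 members above background in arp6-10 (red) and Col-0 (blue) at 12 °C, 2 h and 24 h at 27 °C. Points are arrays, bars are group means, and open points are the 2 arp6-10 arrays that stood apart; at 12 °C nad1 257324_at lay between 27.3 and 63.4 in arp6-10 and at 92.3 and 129.7 in Col-0.

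The largest set of differences lay between the genotypes before the shift. At 12 °C, the arp6-10 level was lower for 7 of 25 members and higher for none, at a limma p under 0.05 after Benjamini-Hochberg adjustment over all probe sets. Over all probe sets 22.3% were called in either direction and 10.5% were called lower. The 7 were 3 nad1 probe sets, nad2, nad4L, nad6 and cox2. The members' median difference was -0.45 log2, against -0.06 over all probe sets, and 21 of 25 were negative. The count depends on the setting. It was 3 with values as deposited, 2 with the compared groups alone and 2 without Col-0 replicate 1 at 12 °C. Without the 2 arrays that stood apart 8 members were lower, with 26.9% of all probe sets called in either direction and 12.9% lower. Of the tissue markers, the root gene NAI2 was higher in arp6-10 at 12 °C (log2 1.003, limma adjusted p = 0.00764), and the other root markers PYK10 and EXPA7 had 0.30 and -0.47. The green tissue gene PRK had 0.73 (adjusted p = 0.0603), PSAE-1 0.27 and LHCB4.2 -0.03. Summed root markers ran from 6335 to 10968.6 in arp6-10 and from 9645.6 to 10163.5 in Col-0. Summed green tissue markers ran from 16418.2 to 33904.1 in arp6-10 and from 20384.6 to 25365.1 in Col-0. The 33904.1 is the arp6-10 array that stood apart, and the other arp6-10 arrays had 16418.2, 19006.7 and 19415.8, below both Col-0 arrays. Without the 2 arrays that stood apart, LHCB4.2 was lower (log2 -0.52, limma adjusted p = 0.0211) and PRK higher (0.52, adjusted p = 0.0429). PSAE-1 was not called (0.16), and NAI2 stayed higher (0.83, adjusted p = 0.0054). The part of these markers in the members' differences was not tested.

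Among members above background, nad1 257324_at, which reads a membrane-arm subunit of complex I, differed most at 12 °C. Its intensities were 27.3, 43.9, 44.6 and 63.4 in arp6-10, against 92.3 and 129.7 in Col-0. The groups did not overlap. Its normalized log2 level was 5.86 ± 0.35 in arp6-10 (SD, n = 4) and 7.17 ± 0.34 in Col-0 (SD, n = 2), a 2.48-fold lower level in arp6-10 (log2 difference -1.31, SE 0.28, limma adjusted p = 0.00285). Without Col-0 replicate 2 the call was lost, at an adjusted p of 0.0535. With both arrays that stood apart left out, the log2 difference was -1.296 (adjusted p = 0.0038).

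The cox2 probe set, for the subunit that takes electrons from cytochrome c, had intensities of 13.9, 18.1, 23.3 and 54.8 in arp6-10 at 12 °C, against 83.6 and 49.3 in Col-0. The highest arp6-10 array exceeded the lower Col-0 array before normalization, and the groups did not overlap after it. The log2 level was 5.34 ± 0.56 in arp6-10 (SD, n = 4) and 6.55 ± 0.37 in Col-0 (SD, n = 2), which is 2.31-fold lower (log2 -1.21, SE 0.39, limma adjusted p = 0.0359). This call was lost without either Col-0 array, without arp6-10 replicate 1, 2 or 3, with values as deposited and with the compared groups alone, at an adjusted p of up to 0.261. Without both arrays that stood apart it was -1.18 log2 (adjusted p = 0.0451). The cox1 probe set, which reads the haem-bearing core subunit, went the other way in value without passing the test. It had 278.6, 419.5, 756.4 and 550.7 in arp6-10 and 379.6 and 248.2 in Col-0, with a log2 difference of 0.47 and overlapping groups.

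The nad1 probe sets did not move alike. At 12 °C nad1 257322_at was lower in arp6-10, at 11.4, 36.8, 39.8 and 39.0 against 66.4 and 42.6 in Col-0 (1.77-fold, limma adjusted p = 0.0498), and 5 of 18 fits that each left out 1 array kept this call. The call was lost with values as deposited, with the compared groups alone and with the replicate number as a block. Without the 2 arrays that stood apart the difference was -0.90 log2 (adjusted p = 0.0407). The third probe set above background, nad1 257321_at, differed by -0.07 log2 and its groups overlapped. The dim nad1 257325_at had 1.6, 8.6, 5.0 and 3.2 in arp6-10, against 29.2 and 22.3 in Col-0 (2.13-fold, log2 -1.09, limma adjusted p = 0.00303). It is the 1 call among the 12 made in all comparisons that held in all 18 fits leaving out an array, though most of its values lie near background and its fold is a rough value. Without the 2 arrays that stood apart it was -1.097 log2 (adjusted p = 0.0037).

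The other calls at 12 °C were also of dim members. They were nad4L, lower by 0.92 on the log2 scale, nad6 by 0.98 and nad2 by 1.01, with adjusted p of 0.0211, 0.0395 and 0.0426. Intensities of nad4L were 10.0, 15.6, 17.8 and 22.9 in arp6-10 and 37.9 and 40.9 in Col-0. For nad2 they were 23.8, 3.5, 2.0 and 11.7 in arp6-10 and 31.8 and 31.2 in Col-0. The nad2 call was lost without the arrays that stood apart (adjusted p = 0.0849), with values as deposited and with the compared groups alone. It was also lost with the replicate number as a block and in 8 of 18 fits leaving out 1 array. The nad4L call was lost without either Col-0 array, without arp6-10 replicate 1 and with the compared groups alone. The nad6 call was lost without Col-0 replicate 1, without arp6-10 replicate 2 or 4, with values as deposited and with the compared groups alone, and its log2 difference ran from -1.37 to -0.59 when 1 array was left out. With both arrays that stood apart left out, nad4L and nad6 were called, at -0.93 and -1.09 log2 (adjusted p = 0.0284 and 0.0135).

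Of the haem-attachment genes, ccb452 came closest to the threshold at 12 °C, with 59.3, 154.7, 217.1 and 114.8 in arp6-10 and 191.1 and 217.6 in Col-0 (log2 -0.86, adjusted p = 0.0556). Without the 2 arrays that stood apart it was lower in arp6-10 by 1.07 on the log2 scale (adjusted p = 0.0100). ccb382 and ccb206 had positive differences of 0.41 and 0.18 log2 and overlapping groups. Counting overlap alone, 12 of the 25 members had every arp6-10 array below every Col-0 array on the normalized scale at 12 °C, against 21.3% of all probe sets. None had every arp6-10 array above, a direction for which no share over all probe sets is given here.

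**Figure D2:**
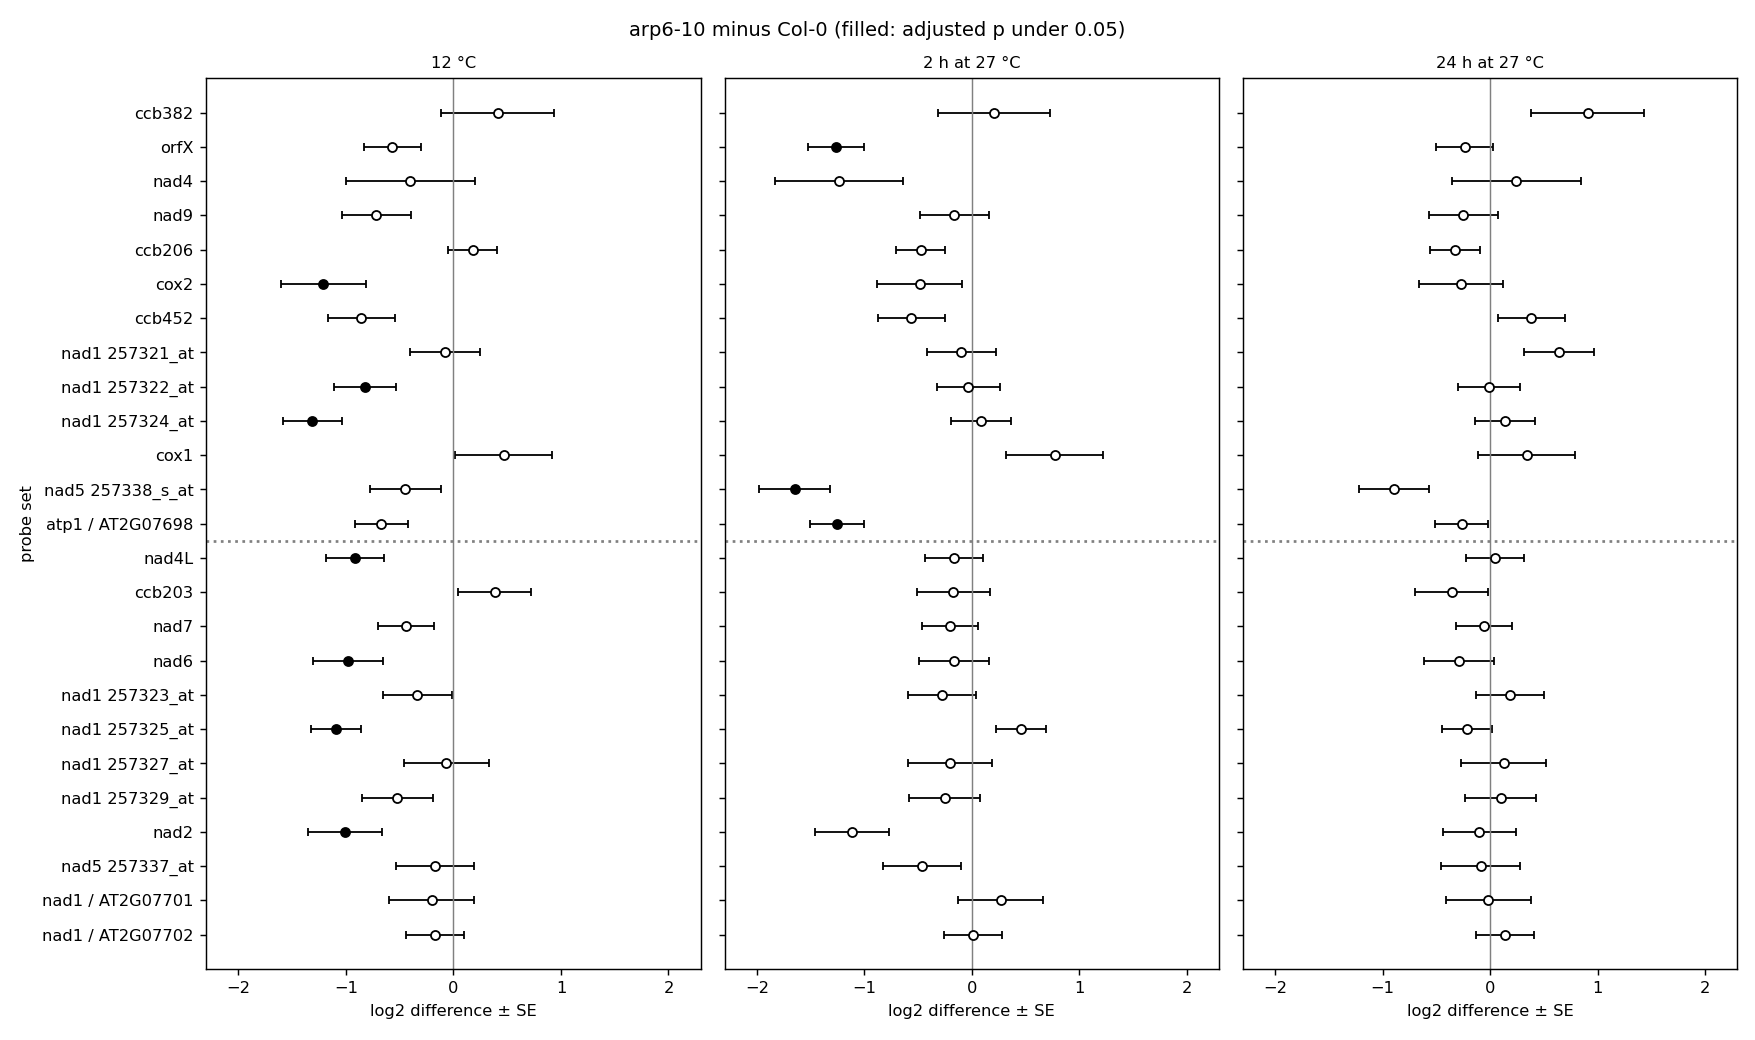
Log2 difference of arp6-10 minus Col-0 (horizontal axis) with its standard error for the 25 members at 12 °C, 2 h and 24 h at 27 °C, with members near background under the dotted line. Filled points passed the limma test at an adjusted p under 0.05, which holds for 7 members at 12 °C, 3 at 2 h and none at 24 h, all of them lower in arp6-10.

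After 2 h at 27 °C, the arp6-10 level was lower for 3 of 25 members and higher for none, against 5.9% of all probe sets in either direction and 2.69% lower. The 3 were orfX, nad5 257338_s_at and the probe set shared by atp1 and AT2G07698, none of which was called at 12 °C with all arrays. The atp1 and AT2G07698 probe set had a log2 difference of -0.67 at 12 °C (limma adjusted p = 0.0625). Without the 2 arrays that stood apart it was called lower there, at -0.74 log2 (adjusted p = 0.0442). For it and orfX the normalized groups did not overlap at 12 °C. All 3 probe sets called at 2 h have the suffix of probes shared by several transcripts, so nuclear and mitochondrial copies cannot be told apart for these calls. The members' median difference was -0.20 log2, against -0.01 over all probe sets.

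Intensities of orfX, the mttB membrane protein, were 77.8, 98.0, 110.7 and 94.6 in arp6-10 at 2 h, against 156.8 and 336.7 in Col-0. The groups did not overlap, and the log2 level was 6.81 ± 0.18 in arp6-10 (SD, n = 4) and 8.08 ± 0.67 in Col-0 (SD, n = 2), a 2.40-fold lower level (SE 0.26 log2, limma adjusted p = 0.0101). The probe set nad5 257338_s_at, for another membrane-arm subunit, had 17.6, 3.0, 35.5 and 25.5 in arp6-10 and 62.8 and 104.6 in Col-0, with a log2 difference of -1.65 (SE 0.33, adjusted p = 0.0085). Its arp6-10 mean there was 5.13 log2, under the background cutoff of 5.31, so the size of this difference is a rough value. The atp1 and AT2G07698 probe set had 166.3, 204.8, 230.2 and 195.7 in arp6-10 and 339.7 and 656.1 in Col-0, which is 2.39-fold lower (log2 -1.26, SE 0.25, adjusted p = 0.00796). For each of the 3, every arp6-10 array was below both Col-0 arrays. On the normalized scale this held for 7 of the 25 members at 2 h. Another 2, cox1 and the dim nad1 257325_at, had every arp6-10 array above both. No share over all probe sets is given here for either direction.

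All 3 calls rest on Col-0 replicate 2 at 2 h, the highest array for each and the array with the highest GAPDH ratio, 6.78. Without it the log2 differences were -0.79, -1.38 and -0.80, with adjusted p of 0.225, 0.142 and 0.195. The GAPDH ratio was 1.47 to 3.09 in arp6-10 at 2 h and 2.58 and 6.78 in Col-0, and its part in these differences was not tested beyond the fit with the ratio as a covariate, in which all 3 calls held. The same Col-0 array had 2172.5 for nad4, against 792.1 on the other Col-0 array, and 652.5, 716.9, 643.0 and 277.5 in arp6-10. The nad4 difference of -1.24 log2 did not pass (adjusted p = 0.245).

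After 24 h at 27 °C no member was called between genotypes, against 0.563% of all probe sets. Only 1 member had an unadjusted p under 0.05, nad5 257338_s_at, with 27.5, 24.3, 23.6 and 41.3 in arp6-10 and 81.2 and 54.1 in Col-0 (log2 -0.89, SE 0.33, limma adjusted p = 0.241). The median difference of the members was -0.02 log2. For nad1 257324_at the difference was 0.14 log2, with 48.9, 45.1, 67.7 and 75.1 in arp6-10 and 51.7 and 45.5 in Col-0, and for cox2 it was -0.27, with overlapping groups in both cases. With both arrays that stood apart left out, no member was called at 24 h either, against 1.53% of all probe sets, and the 3 differences were -0.85, 0.21 and -0.38 log2.

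In Col-0, warming gave 1 call at each time. After 24 h, nad1 257324_at was the 1 of 25 members that fell, against 11.1% of all probe sets called in either direction and 4.51% called lower. It had 51.7 and 45.5 at 24 h, against 92.3 and 129.7 at 12 °C, with no overlap. The log2 level was 5.96 ± 0.03 at 24 h and 7.17 ± 0.34 at 12 °C (SD, n = 2 each), which is 2.31-fold lower (SE 0.32 log2, limma adjusted p = 0.0242). The call was lost without either 24 h array or without 12 °C replicate 2, and it was also lost with values as deposited and with the compared groups alone, with adjusted p up to 0.14.

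Other members in Col-0 had lower values at 24 h without passing. The median over the 25 was -0.42 log2, against -0.03 over all probe sets, and 20 were negative. Both 24 h arrays lay below both 12 °C arrays for 11 members, against 29.9% of all probe sets. They lay above both for ccb203 and ccb206, a direction for which no share over all probe sets is given here. For ccb452 the values were 124.2 and 96.4 at 24 h and 191.1 and 217.6 at 12 °C (log2 -1.04, adjusted p = 0.0699). The fit without the 2 arp6-10 arrays that stood apart called it, with an adjusted p of 0.0246, and 9.68% of all probe sets were called lower in that fit. Green tissue markers moved in this comparison too, with 2 of 3 measured genes higher, against 1501 of all 22746 probe sets. Their summed intensities were 39922.7 to 40427.4 at 24 h and 20384.6 to 25365.1 at 12 °C. The root markers summed to 12168.7 to 14389.6 at 24 h and 9645.6 to 10163.5 at 12 °C, with 1 of 3, NAI2, called higher. The root markers PYK10 and EXPA7 had 0.68 and -1.07 log2 and were not called. The part of these markers in the members' values was not tested, and in whole seedlings fewer cells of a type and less RNA per cell cannot be told apart.

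After 2 h in Col-0 the 1 call was the dim nad1 257325_at, with 2.7 and 2.6 at 2 h and 29.2 and 22.3 at 12 °C (log2 -1.21, SE 0.27, limma adjusted p = 0.0182), against 4.79% of all probe sets in either direction and 2.11% lower. No member above background was called. The 2 arrays at 2 h were far apart for several members. Their intensities were 792.1 and 2172.5 for nad4 and 16.4 and 56.6 for cox2, with the higher value on replicate 2 in both.

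In arp6-10, no member was called at 2 h, against 1.9% of all probe sets, and none at 24 h, where no probe set of the whole array was called (0%) with all 18 arrays. At each time 2 members had an unadjusted p under 0.05 by limma, and the lowest adjusted p was 0.24 at 2 h and 0.586 at 24 h. The means of ccb382 at 12 °C, 2 h and 24 h were 9.60 ± 1.18, 9.97 ± 0.28 and 10.52 ± 0.60 log2 (SD, n = 4 each).

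Both arrays that stood apart weigh on ccb382, a part of the haem lyase. It had 1509.4, 798.8, 1921.3 and 1687.1 at 24 h, against 317.0, 577.9, 2111.5 and 792.8 at 12 °C, and the low 24 h value and the high 12 °C value are from those 2 arrays. Without them, ccb382 was higher at 24 h than at 12 °C by 1.75 log2, or 3.36-fold (limma adjusted p = 0.0002), and higher at 2 h by 0.91 log2, or 1.87-fold (adjusted p = 0.0313). The dim nad6 was higher at 24 h as well, 1.82-fold (adjusted p = 0.0348). In that fit 8.96% of all probe sets were called higher at 24 h and 5.12% at 2 h.

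**Figure D3:**
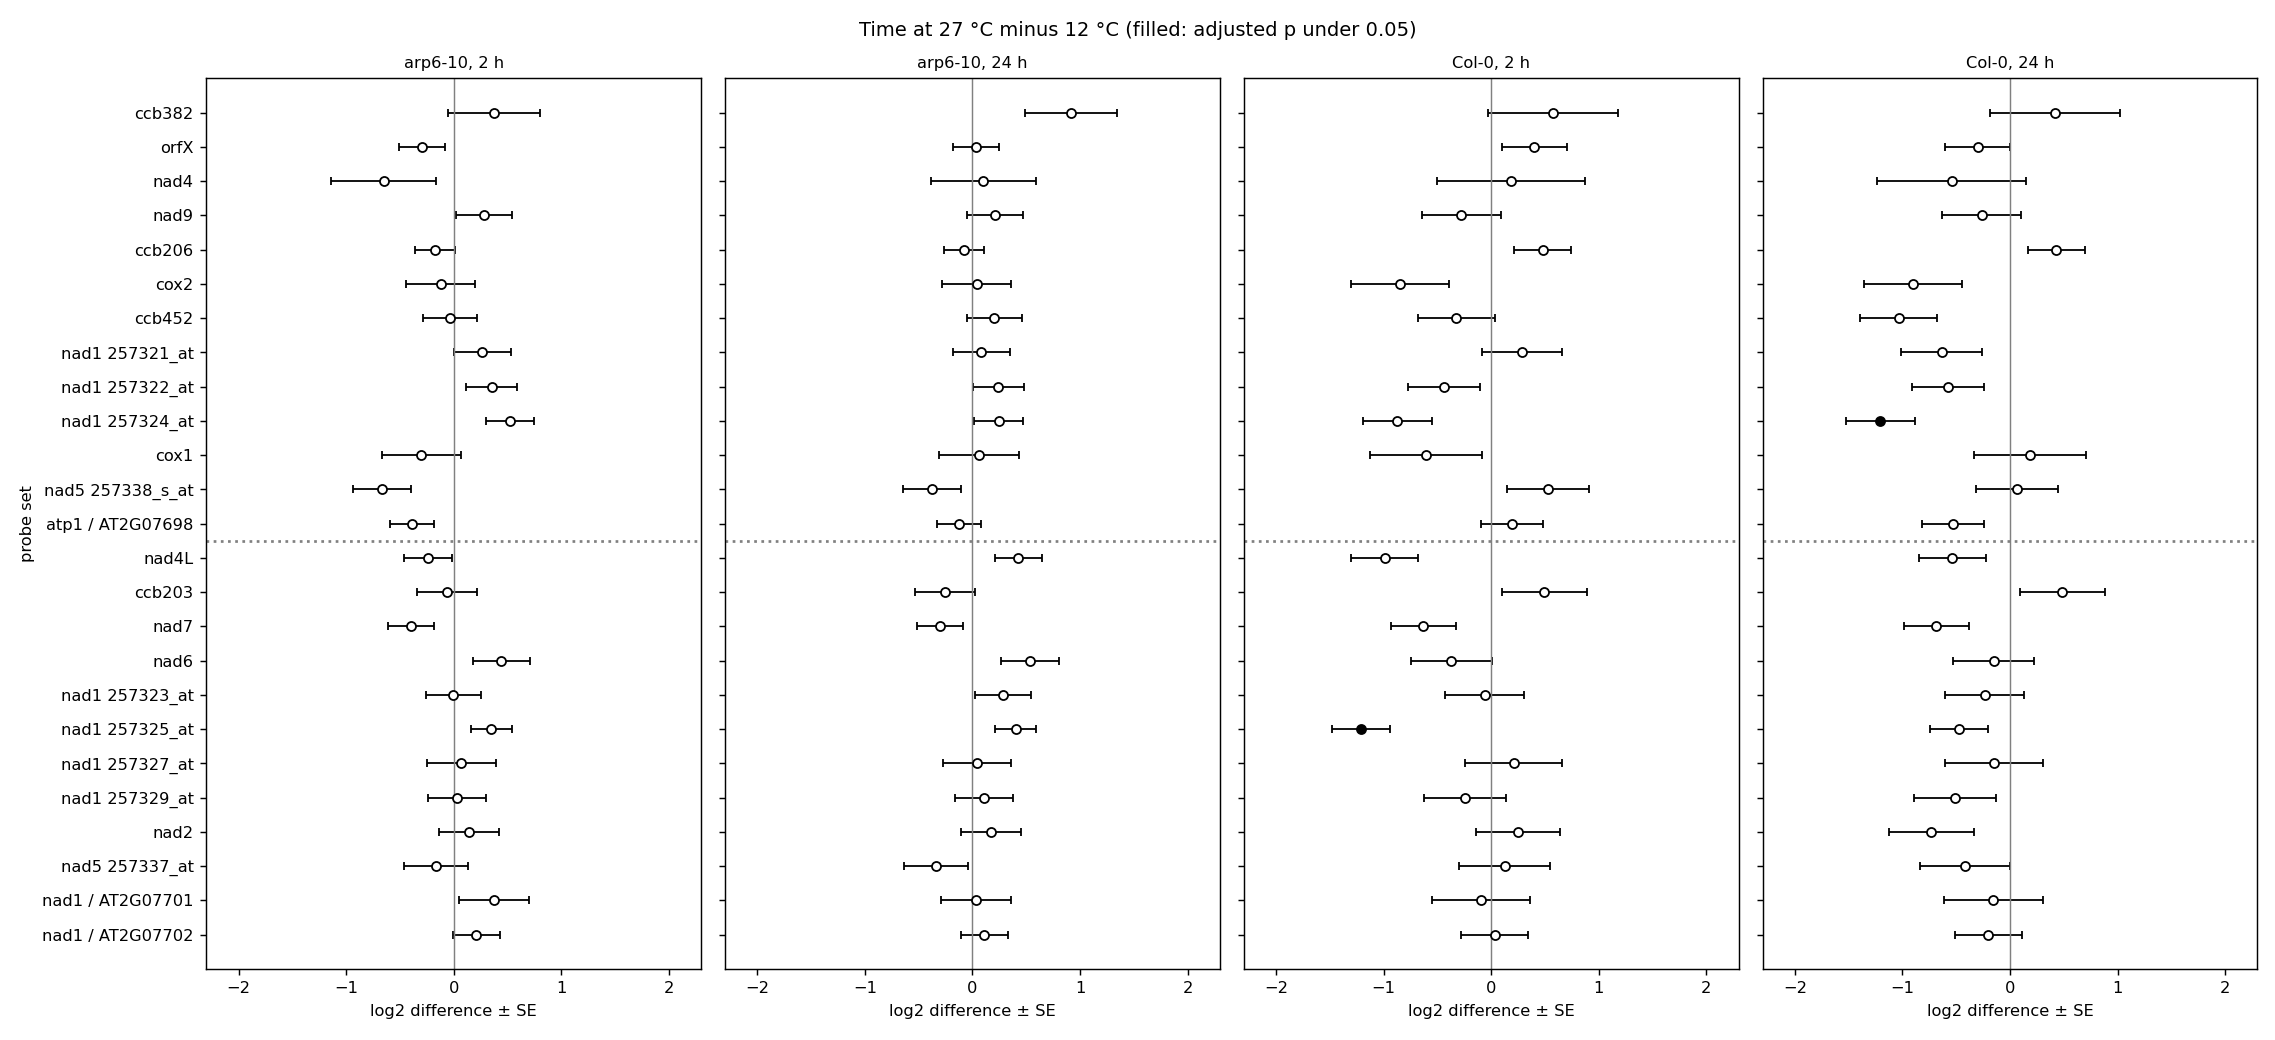
Log2 difference of each time at 27 °C minus 12 °C (horizontal axis) with its standard error for the 25 members, in arp6-10 and Col-0 at 2 h and 24 h, with members near background under the dotted line. Filled points passed the limma test at an adjusted p under 0.05, which holds for none in arp6-10 and for 1 nad1 probe set at each time in Col-0, both lower.

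Whether the genotypes responded differently was tested as a difference of responses, arp6-10 minus Col-0. No member passed for the 2 h response, against 0.29% of all probe sets, or for the 24 h response, against 3.34%. By limma, 3 and 4 members had an unadjusted p under 0.05 at 2 h and 24 h. The lowest adjusted p was 0.0545 at 2 h, for the dim nad1 257325_at (log2 1.55), and 0.0516 at 24 h, for nad1 257324_at (log2 1.45, SE 0.39). At 24 h the members' median was 0.50 log2, against 0.03 over all probe sets, and 21 of 25 were positive. Without the 2 arrays that stood apart, nad1 257324_at and ccb452 passed at 24 h, with differences of 1.51 and 1.53 log2 (adjusted p = 0.0386 and 0.0300), and nad1 257325_at passed at 2 h (1.55 log2, adjusted p = 0.0458). In that fit 6.91% of all probe sets were called at 24 h and 2.43% in the positive direction, and 0.849% and 0.211% at 2 h.

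With all 18 arrays, 15 of the 25 members were called in none of the 9 comparisons. Among them nad9 and ccb206, above background, had intensities of 14.2 to 58.4 and 23.5 to 56.5 over all arrays. The dim ones covered 1.4 to 29.6 for nad7, 1.7 to 29.4 for ccb203, 1.0 to 27.2 for nad5 257337_at, 0.7 to 33.4 for nad1 257323_at, 2.3 to 49.2 for nad1 257327_at and 1.5 to 32.8 for nad1 257329_at. The probe sets that nad1 shares with AT2G07701 and AT2G07702 covered 1.9 to 33.4 and 6.1 to 25.8.

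The members followed the GAPDH ratio to different degrees. Over all 18 arrays, log2 levels of nad4 rose with the log2 ratio, with Pearson's r of 0.775 (permutation p = 0.0001, 0.0013 after Benjamini-Hochberg adjustment over 13 members) and Spearman's rho of 0.628 (permutation p = 0.00668, adjusted 0.0844). The r was 0.671 without the 2 arrays farthest from the median ratio, and 0.823 after subtracting group means. Within each genotype it was 0.83 over the 12 arp6-10 arrays and 0.499 over the 6 Col-0 arrays. For the other 12 members r was 0.024 to 0.562 over all arrays, and none passed the adjustment (adjusted p of 0.0729 or more).

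After subtracting group means r was positive for all 13 members, with a median of 0.476, highest for ccb452 at 0.846. The median was 0.0144 over all probe sets, 0.481 over 77 plastid genome probe sets and -0.292 over 19 nuclear genes for respiratory complexes. These values share the same 18 arrays and are given as a description. The fit with the ratio as a covariate called 10 members at 12 °C between genotypes, with 25.2% of all probe sets called in either direction and 12.1% lower.

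**Figure D4:**
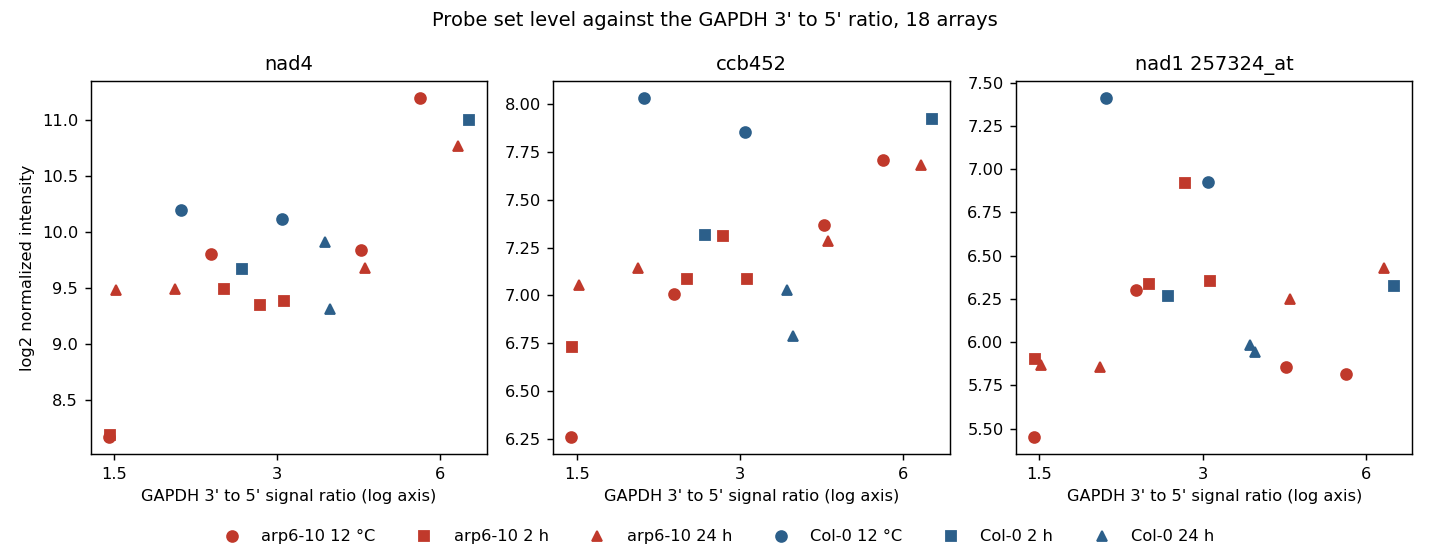
Normalized log2 level (vertical axis) of nad4, ccb452 and nad1 257324_at against the GAPDH 3' to 5' signal ratio (log axis) on 18 arrays, with colour for genotype and shape for time. The nad4 points run upward with the ratio (r = 0.775), while those of nad1 257324_at do not follow it over all arrays (r = 0.0949). After subtracting group means r was 0.823 for nad4 and 0.460 for nad1 257324_at. For nad1 257324_at it was 0.344 within arp6-10 and -0.571 within Col-0, group means not subtracted.

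Other transcripts of the mitochondrial genome, read by 10 probe sets outside the rule, 8 of them above background, were read beside the members. At 12 °C the probe set shared by AT2G07671 and atp9, the ring subunit of ATP synthase, was lower in arp6-10 by 1.19 on the log2 scale (limma adjusted p = 0.0218), and the one shared by AT2G07715 and rpl2, for a ribosomal protein, was lower by 0.90 (adjusted p = 0.0088). These are 2 of 10, against 10.5% of all probe sets called lower, and the median over the 10 was -0.55 log2. With both arrays that stood apart left out, 3 of 10 were lower, against 12.9%, the third being the probe set shared by AT2G07734 and rps4. In Col-0 at 24 h that probe set, for another ribosomal protein, was the 1 of 10 that was lower than at 12 °C (log2 -1.05, adjusted p = 0.0425), against 4.51% of all probe sets. The dim matR, a maturase gene, was the 1 of 10 lower in arp6-10 at 2 h (log2 -0.98, adjusted p = 0.0295), against 2.69%.

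Nuclear genes for subunits of the same complexes and for cytochrome c, with 19 of 39 listed genes measured, were read beside the members. At 12 °C, 3 were lower in arp6-10, against 10.5% of all probe sets. They were the complex I subunit NDUFS7 (log2 -1.002, limma adjusted p = 0.00145) and the cytochrome c1 genes CYC1-1 and CYC1-2 (-0.70 and -0.63). The complex II subunit gene SDH1-1 was the 1 of 19 that was higher, by 1.16 log2 (adjusted p = 0.0136), against 11.8%. In Col-0 at 24 h, NDUFS7, the cytochrome c gene CYTC-2 and the complex II gene SDH2-2 were lower than at 12 °C, by log2 differences of -0.92, -1.63 and -0.72, which is 3 of 19 against 4.51% of all probe sets. With all 18 arrays none of the 19 was called in the other comparisons, and their medians were -0.24 log2 between genotypes at 12 °C and -0.47 in Col-0 at 24 h. Without the 2 arrays that stood apart, 4 were lower and 1 higher in arp6-10 at 12 °C, against 12.9% and 14.1% of all probe sets. In that fit 7 were lower in Col-0 at 24 h, against 9.68%.

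Of 5 measured genes of the alternative respiratory pathway, NDB4, an NAD(P)H dehydrogenase outside complex I, was higher in arp6-10 than in Col-0 at 12 °C, 2 h and 24 h, by 3.02-fold, 3.98-fold and 6.12-fold (limma adjusted p = 0.0230, 0.0218 and 0.0165). Without the 2 arrays that stood apart the folds were 3.90, 3.98 and 4.66. With all 18 arrays, 2687, 730 and 60 of 22746 probe sets were called higher at these times. Of 5 measured genes for mitochondrial RNA synthesis and processing, the maturase gene NMAT2 was higher in arp6-10 at 12 °C (log2 0.73, adjusted p = 0.0386). Over all probe sets 11.8% were called higher at 12 °C, and the NMAT2 call was lost without the 2 arrays that stood apart. In that fit PNP MT and RPOTMP of the same list were higher at 12 °C instead (log2 1.33 and 1.10, limma adjusted p = 0.0032 and 0.0260), against 14.1%. PNP MT was also higher in arp6-10 at 2 h (log2 1.41, adjusted p = 0.0040), against 6.65%. Among 77 plastid genome probe sets at 12 °C, 7 were higher and 1 lower in arp6-10, against 11.8% and 10.5% of all probe sets, and their median was -0.23 log2. With both arrays that stood apart left out, 8 were higher and 7 lower, against 14.1% and 12.9% of all probe sets, with a median of -0.39 log2. With all 18 arrays no listed gene was called in arp6-10 between 24 h and 12 °C. Without those 2 arrays, 22 of 77 plastid and 1 of 10 other mitochondrial probe sets were higher at 24 h, against 8.96%. Lower were 5 of 19 nuclear respiratory genes, 3 of 5 alternative pathway genes and 1 of 5 RNA genes, against 9.69%.

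The probe sets outside the members whose levels most resembled the mean of the 13 members above background over 18 arrays were an unnamed one (Pearson r = 0.908), AT1G68490 (0.893), and psaI, ndhE and ndhJ of the plastid genome (0.880, 0.873 and 0.872). That mean was 6.89 ± 0.41, 6.83 ± 0.18 and 7.01 ± 0.24 log2 in arp6-10 at 12 °C, 2 h and 24 h (SD, n = 4 each), and 7.36 ± 0.02, 7.30 ± 0.38 and 6.98 ± 0.09 in Col-0 (SD, n = 2 each). Without the 2 arrays that stood apart it was 6.76 ± 0.38 at 12 °C and 7.06 ± 0.26 at 24 h in arp6-10 (SD, n = 3 each).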

How the data were processed

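Whole-seedling RNA was measured on 18 Affymetrix arrays. The authors deposited a table of linear signal intensity per probe set. The submitters' processing notes name GCOS, and neither its version nor its algorithm is given in the sources used here. The mean after removing 2% at each end was about 250.03 on every array (all probe sets, controls included). The arrays share this mean, but other measures differed by genotype. At 12 °C the mean of the hybridization control probe sets was 2569 to 3020 in arp6-10 and 3573 and 3696 in Col-0. At 2 h it was 2580.5 to 3067 in arp6-10 and 3892 and 5468 in Col-0, and at 24 h the groups overlapped. The median log2 deposited value at 12 °C was 6.52 to 6.71 in arp6-10 and 6.27 and 6.39 in Col-0. The part of these measures in the members' differences was not tested. No detection calls were used here.

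Values were quantile-normalized between arrays and put on a log2(value + 16) scale, which understates changes of dim genes. limma 3.58.1 in R 4.3.3 (lmFit, eBayes with a trend, two-sided) fitted 6 group means to 22746 probe sets without a filter, with 12 residual degrees of freedom, and 9 contrasts were adjusted by Benjamini-Hochberg. Correlations used 100000 permutations. The fit was tested on simulated data. The number of arrays limits the precision.

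In the annotation, 13513 probe sets have 1 gene, 503 have more, and it does not list 8730. All members with a known role may be named, and listed genes outside them only where called. Other mitochondrial genes were identified by RefSeq TAIR10.1 symbol because the annotation used gives no mitochondrial locus code. Members and lists were chosen with earlier results of these data known. No build is named, so no coordinates are printed. Replicate numbers did not pair the arrays, with 4 of 36 same-numbered pairs correlating over 0.1.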

Additional observations from a re-analysis of the deposited data

Results flagged for a closer look

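In 5 of 75 tested combinations of a member and a group of 4 arrays, 1 array lay far from the other 3, judged by its gap over the group's range on the log2 scale against Dixon's critical value. Chance gives about 1 in 20. For nad4 in arp6-10 at 2 h the ratio was 0.892, with replicate 4 at 277.5 and the others at 643.0 to 716.9. For nad4 in arp6-10 at 24 h it was 0.850, with replicate 4 at 1685.7 and the others at 706.4 to 795.8. For nad1 257322_at in arp6-10 at 12 °C it was 0.884, with replicate 1 at 11.4 and the others at 36.8 to 39.8. The dim ccb203 and nad7 in arp6-10 at 12 °C gave 0.874, with replicate 2 at 6.0 and the others at 15.7 to 18.9, and 0.850, with replicate 4 at 4.0 and the others at 15.2 to 16.2.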

How the results depend on the processing

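No call changed sign under any setting tried. Counts of members called between genotypes at 12 °C (7) became 3 with values as deposited and 2 with the compared groups alone, and leaving out 1 array gave 2 to 8, with 2 and 3 without Col-0 12 °C replicates 1 and 2, and 4 and 3 without arp6-10 replicates 1 and 2. At 2 h (3) leaving out 1 array gave 0 to 4, with 0 without Col-0 replicate 2. For Col-0 at 2 h (1) the count was 2 with a pseudocount of 64, 2 with the replicate block, 2 with the GAPDH covariate, 0 with the filter on dim probe sets, 0 with the compared groups alone, and 0 to 1 leaving out 1 array. For Col-0 at 24 h (1) it was 0 with values as deposited, 2 without the 2 arrays that stood apart, 2 with the covariate and 0 to 2 leaving out 1 array. In arp6-10 the count (0) was 1 at 2 h and 2 at 24 h without the arrays that stood apart, and 0 in every fit leaving out 1 array. For the differences of responses (0) it was 1 at 2 h without the arrays that stood apart, and at 24 h it was 1 with a pseudocount of 64, 1 with the filter, 2 without the arrays that stood apart and 2 with the covariate, with 0 to 1 in both leaving out 1 array. The median over members above background in Col-0 at 2 h was 0.18 log2 and -0.48 with the covariate. The cause of these shifts was not tested. The replicate block called 8 members at 12 °C, and 6 of 18 arrays had their best match in another group at the same number. The filter leaves 13 members to test, and 12 members near background have only rough folds.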
